A study of Arabidopsis thaliana with 12 samples.

Results

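SAUR genes, named for small auxin up RNA, are a large plant family that holds many early auxin-induced growth genes. Here 52 SAUR genes were followed across shade and warmth in seedlings of Arabidopsis thaliana. They were taken from a list of 52 gene identifiers of the family, out of 33602 genes in the deposited table. The rule that lists them uses no measured value. SAUR2 (AT4G34780) held 1 read in 1 library and was not tested, which left 51 tested members.

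The study asked how seedlings respond to shade and to warmth, alone and together. Whole seedlings of the wild type Columbia 0 grew at 22 °C with 10 h of white light a day, at 100 µmol m-2 s-1 and a red to far-red ratio of 1.1. At an age of 3 days they spent the 10 h light period of day 4 under 1 of 4 conditions: white light at 20 °C (L20), the same light at 28 °C (L28), shade at 20 °C (S20), or shade combined with 28 °C (S28). Each group had 3 biological replicates, collected at the end of that period, and L20r1 stands for replicate 1 of L20, and so on. The labels used here gave no light settings for the shade, and no agent or mutation was part of any group.

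Auxin switches many, though not all, SAUR genes on within minutes of its rise, and their proteins are small and often short-lived. SAUR19 and its close relatives bind and inhibit PP2C.D phosphatases, which otherwise keep plasma membrane proton pumps (AHA proteins) in a less active state, and active pumps acidify the cell wall and let cells expand. In young seedlings both low red to far-red light and mild warmth lengthen the hypocotyl, through phytochrome-interacting factors that act upstream of auxin synthesis.

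The members lay on 5 chromosomes, each with 1 coding exon and a protein of 86 to 190 amino acids (median 111), by the RefSeq TAIR10.1 annotation. Several sit side by side as related copies, near-identical in SAUR19 to SAUR24 and less alike in the other clusters. Coding sequences of SAUR19 to SAUR24 were 87.7% to 95.2% identical over 15 pairs, those of SAUR26 to SAUR29 77.7% to 86.3% over 6 pairs, and those of SAUR61 to SAUR68 45.6% to 89.4% over 28 pairs. The first 90 coding bases of SAUR19 to SAUR24 are shown because reads from such copies can be shared or lost in counting. Capitals mark bases that differ from SAUR19 or have no partner in it after alignment (RefSeq, TAIR10.1, 5′ to 3′ along the gene: SAUR19 at chr5:5963216-5963305 on the minus strand, SAUR20 at chr5:5966491-5966580 on the minus strand, SAUR21 at chr5:5968527-5968616 on the plus strand, SAUR22 at chr5:5974874-5974963 on the minus strand, SAUR23 at chr5:5976030-5976119 on the plus strand, SAUR24 at chr5:5983840-5983929 on the plus strand).
SAUR19: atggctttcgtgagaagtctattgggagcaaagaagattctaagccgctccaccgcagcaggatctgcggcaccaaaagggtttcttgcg
SAUR20: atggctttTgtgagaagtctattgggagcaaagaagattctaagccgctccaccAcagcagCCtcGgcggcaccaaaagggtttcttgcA
SAUR21: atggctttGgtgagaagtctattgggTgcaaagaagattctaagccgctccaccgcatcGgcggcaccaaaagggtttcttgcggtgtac
SAUR22: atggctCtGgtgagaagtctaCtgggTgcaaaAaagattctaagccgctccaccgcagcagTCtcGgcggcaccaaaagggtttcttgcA
SAUR23: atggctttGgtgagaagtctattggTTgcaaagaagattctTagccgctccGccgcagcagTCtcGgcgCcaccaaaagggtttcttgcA
SAUR24: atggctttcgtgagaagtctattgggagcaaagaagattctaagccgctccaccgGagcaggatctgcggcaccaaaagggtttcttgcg
SAUR24 differed from SAUR19 at 1 aligned position in this stretch and SAUR23 at 10, so summed reads of each cluster were tested beside the members' own values.

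Upstream sequences are shown for members with different patterns of response: SAUR22 and SAUR66 as shade risers of the clusters, SAUR3 as a gene that rose with either treatment, and SAUR51 and SAUR55 as warmth risers. Each run holds the 250 bases before the annotated start (RefSeq, TAIR10.1: SAUR22 chr5:5975088-5975337 on the minus strand, SAUR66 chr1:10320761-10321010 on the plus strand, SAUR3 chr4:16594112-16594361 on the plus strand, SAUR51 chr1:28377127-28377376 on the plus strand, SAUR55 chr5:20644275-20644524 on the plus strand). Capitals mark CACATG, an E-box variant of the phytochrome-interacting factors' G-box CACGTG, and TGTCTC, the classical auxin response element, on either strand.
SAUR22: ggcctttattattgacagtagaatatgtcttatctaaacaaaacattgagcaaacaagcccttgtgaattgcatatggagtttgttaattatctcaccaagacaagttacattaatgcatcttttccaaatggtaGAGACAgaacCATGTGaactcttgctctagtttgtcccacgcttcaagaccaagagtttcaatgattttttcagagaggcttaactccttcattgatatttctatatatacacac
SAUR66: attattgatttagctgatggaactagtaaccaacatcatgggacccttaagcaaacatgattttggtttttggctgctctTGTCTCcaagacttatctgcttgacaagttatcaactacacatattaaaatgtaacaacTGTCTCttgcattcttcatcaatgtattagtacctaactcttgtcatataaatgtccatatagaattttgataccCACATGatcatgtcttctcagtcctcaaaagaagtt
SAUR3: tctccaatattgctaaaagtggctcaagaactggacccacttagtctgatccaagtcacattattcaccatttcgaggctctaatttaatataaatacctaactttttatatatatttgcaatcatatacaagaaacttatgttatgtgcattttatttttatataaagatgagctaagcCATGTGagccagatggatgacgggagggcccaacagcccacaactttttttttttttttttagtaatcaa
SAUR51: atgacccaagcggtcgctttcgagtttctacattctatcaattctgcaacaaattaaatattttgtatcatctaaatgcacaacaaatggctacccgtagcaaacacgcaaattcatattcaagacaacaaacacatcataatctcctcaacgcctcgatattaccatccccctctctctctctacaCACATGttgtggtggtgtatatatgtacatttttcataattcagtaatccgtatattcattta
SAUR55: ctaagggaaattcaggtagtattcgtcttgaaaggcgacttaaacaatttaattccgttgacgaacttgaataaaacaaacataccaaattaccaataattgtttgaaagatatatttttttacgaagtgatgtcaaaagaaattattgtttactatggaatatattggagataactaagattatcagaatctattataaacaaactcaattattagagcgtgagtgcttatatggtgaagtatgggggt
No capitals stand in the SAUR55 run, which says only that neither these letters nor CACGTG nor TGTCGG, another auxin response element, occurred in that window.

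Over the whole family, reads summed to 191, 201 and 201 CPM, reads scaled to library size, in white light at 20 °C, which is 198 ± 5.60 (SD, n = 3). The sums were 260 ± 5.78 CPM in L28, 295 ± 13 in S20 and 361 ± 43.6 in S28 (SD, n = 3 each). No library of a treated group lay as low as the untreated libraries, and the 3 shaded and warm libraries spread most, at 332, 411 and 338 CPM. In whole seedlings, fewer cells of a type and less RNA per cell cannot be told apart. Library totals were 3500325 to 4481869 reads, so 1 CPM was about 4 reads, and 23 members had a median under 10 reads. Of member values between 1 and 20 reads, 76.2% were even, against 65.9% over the table, so a value may count both mates of a read pair.

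Green shoot markers were lower in every treated group: RBCS1A, LHCB1.3 and LHCB2.1 together gave 23260 to 23540 CPM in L20, 11930 to 16340 in L28, 15010 to 18280 in S20 and 7983 to 13130 in S28. Summed root markers (4 genes, all detected) lay between 119 and 158 CPM in all groups. Seed storage genes (CRU3 and OLEO1) summed to 111.9 CPM in S20r3 and to at most 20.8 CPM elsewhere. The 18S ribosomal share of reads was 0.982% ± 0.604 in L20, 1.42% ± 0.776 in L28, 0.749% ± 0.165 in S20 and 1.77% ± 0.550 in S28 (SD, n = 3). The part of these differences in the SAUR results was not tested, apart from leaving out libraries.

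**Figure D1:**
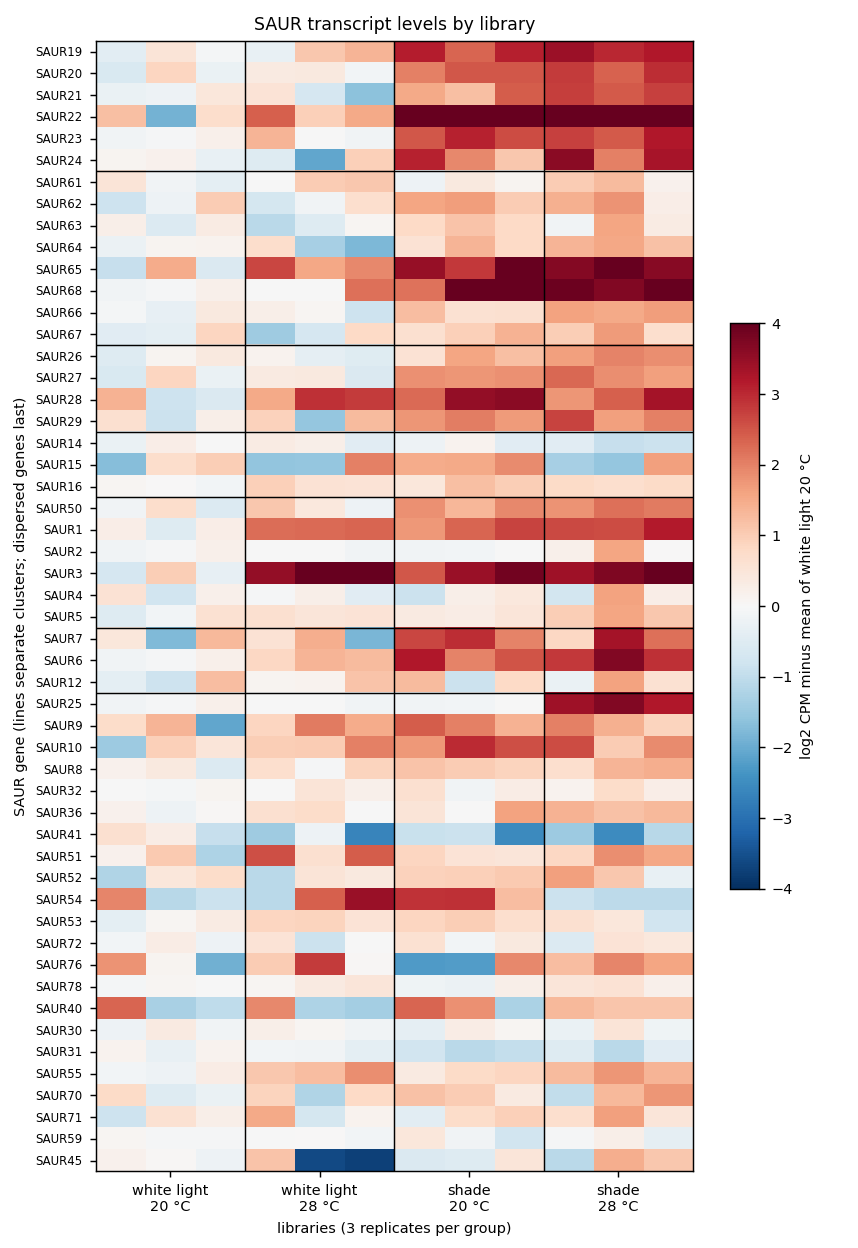
Level of each of the 52 SAUR genes (vertical axis) in each of the 12 libraries (horizontal axis, 3 replicates per group), as log2 CPM minus the mean of white light at 20 °C, with colours that stop at 4 above or below. SAUR19 to SAUR24 are red in the 6 shaded libraries and pale in most white light libraries; SAUR25 is red only in the 3 libraries of shade at 28 °C.

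Each gene was tested with limma across the whole table, and a member was called when its Benjamini-Hochberg adjusted p over 21316 genes was under 0.05. Shade at 20 °C raised 13 of 51 tested members and lowered 1 (SAUR31), where 5.43% of all tested genes rose and 2.66% fell, 8.09% in either direction. Shade at 28 °C, against warm white light, raised 11 and lowered none, against 2.68% and 1.9% of all genes, 4.59% in either direction. Warmth in white light raised 4 and lowered none, against 10.8% and 4.8%, 15.6% in either direction. Of all 52 members, 26 were called in at least 1 of the 7 comparisons, as were 6305 of the 21316 tested genes, 29.6%.

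Under shade, 28 °C against 20 °C raised 1 member, SAUR55, where 2.19% of all tested genes rose and 1.99% fell, 4.18% in either direction. Shade with warmth, against neither, raised 22 members and lowered 1 (SAUR14), against 14.9% and 7.42%, 22.3% in either direction. The members' median log2 change was 0.97 with shade at 20 °C, 0.64 with shade at 28 °C, 0.24 with warmth in white light, 0.25 with warmth under shade and 1.29 with both. All tested genes had medians of 0.05, -0.02, 0.16, 0.08 and 0.16 in that order.

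With library medians subtracted, quantile normalization or trimmed mean scaling, the share of warmth calls that rose went from 69.3% to between 39.8% and 46.1% over all genes, while the same count of 4 members rose. For shade at 20 °C that share went from 67.2% to between 52.9% and 58.6%, with 13 members up and 1 down each time. For both treatments it went from 66.7% to between 44.5% and 48.2%, and 17 members rose and 2 fell, SAUR31 being added to SAUR14. Under shade, the share of warmth calls that rose went from 52.4% to between 25.1% and 39.4%, with SAUR55 the called member each time. For the interaction it went from 28.4% to between 39.4% and 47.4%, with 0 members called.

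**Figure D2:**
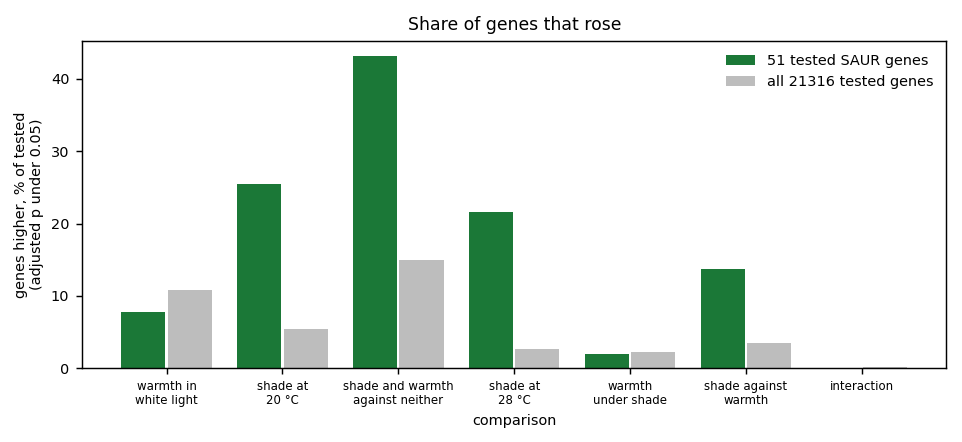
Percent of the 51 tested SAUR genes (green bars) and of all 21316 tested genes (grey bars) that were higher at an adjusted p under 0.05, for each comparison on the horizontal axis. SAUR bars stand above the grey bars for the shade comparisons (13 and 11 members). For warmth they lie near the grey bars: 7.84% (4 members) against 10.8% in white light, and 1.96% (1 member) against 2.19% under shade.

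SAUR19 to SAUR24, the cluster tied to proton pump activation, rose under shade at either temperature, and warmth gave no call in it. Shade at 20 °C raised 5 of the 6 genes (not SAUR24, whose log2 change was 2.02), and shade at 28 °C raised all 6. Their summed reads were 4.02, 4.73 and 4.86 CPM in L20 and 7.75, 4.66 and 5.43 CPM in L28. Under shade they were 31.8, 28.1 and 32.4 CPM in S20 and 44.8, 35.2 and 46.6 CPM in S28. The 6 shaded libraries all lay above the 6 libraries in white light. The white light groups overlapped, while under shade the libraries at 28 °C all lay above those at 20 °C. In the fit with summed clusters, shade changed the sum by 2.73 ± 0.23 (SE) log2 units at 20 °C (limma adjusted p = 1.7e-09) and by 2.82 at 28 °C (adjusted p = 4.5e-09). For warmth the difference was 0.35 in white light, with a 95% interval from -0.11 to 0.82 (adjusted p = 0.315). Under shade it was 0.45, with a 95% interval from -0.02 to 0.91 (adjusted p = 0.326).

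SAUR22 (AT5G18050) gave the smallest adjusted p of the family in shade at 20 °C. Its log2 CPM was 0.01, -3.08 (0 reads) and -0.49 in L20 and 1.20, -0.22 and 0.32 in L28. Under shade its log2 CPM was 3.25, 3.19 and 2.94 in S20 and 3.21, 3.4 and 3.51 in S28. Every shaded library was above every white light library for this gene. The log2 change with shade was 4.31 ± 0.61 (SE) at 20 °C (limma adjusted p = 1.71e-05) and 2.94 ± 0.61 at 28 °C (adjusted p = 0.00312), while warmth in white light gave 1.62 ± 0.61 (adjusted p = 0.0742).

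SAUR19 (AT5G18010), the first gene of the cluster, had a log2 CPM of -0.84, 0.09 and -0.49 in L20 and of -0.72, 0.67 and 0.94 in L28. Shaded libraries of SAUR19 held 2.72, 1.93 and 2.69 in S20 and 3.02, 2.60 and 2.78 in S28. Shade and white light did not overlap in either temperature. Its log2 change with shade was 2.86 ± 0.54 at 20 °C (limma adjusted p = 0.000751) and 2.50 ± 0.54 at 28 °C (adjusted p = 0.00457).

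SAUR21 (AT5G18030) had a log2 CPM of 0.54, 0.62 and 1.28 in L20 and of 1.35, 0.14 and -0.82 in L28. Shade gave SAUR21 2.33, 2.01 and 3.23 in S20 and 3.56, 3.26 and 3.54 in S28. The shaded libraries were again all higher, those at 28 °C all above those at 20 °C, and the warm white light libraries ranged widely. The log2 change of SAUR21 was 1.71 ± 0.51 with shade at 20 °C (limma adjusted p = 0.0348) and 3.23 ± 0.51 at 28 °C (adjusted p = 0.000131). The call at 20 °C was lost when L20r1, L20r2, S20r1, S20r3 or S28r3 was left out, with adjusted p-values from 0.0522 to 0.2099.

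SAUR23 (AT5G18060) had a log2 CPM of -0.84, -0.76 and -0.49 in L20 and of 0.66, -0.70 and -0.82 in L28. Under shade SAUR23 reached 1.80, 2.38 and 1.92 in S20 and 2.05, 1.74 and 2.49 in S28. Its shaded libraries did not overlap with those in white light, and the temperatures overlapped within either light. The log2 change with shade was 2.72 at 20 °C and 2.39 at 28 °C, and both were called. The call at 28 °C was lost when L28r2, L28r3, S28r1 or S28r3 was left out. In white light only L28r1 reached a log2 CPM of 0 for SAUR23, and only L28r3 for SAUR24. Both genes thus met the filter on low values (at least 3 libraries at 0 or more) through shaded libraries. Their calls are therefore given with no test value.

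**Figure D3:**
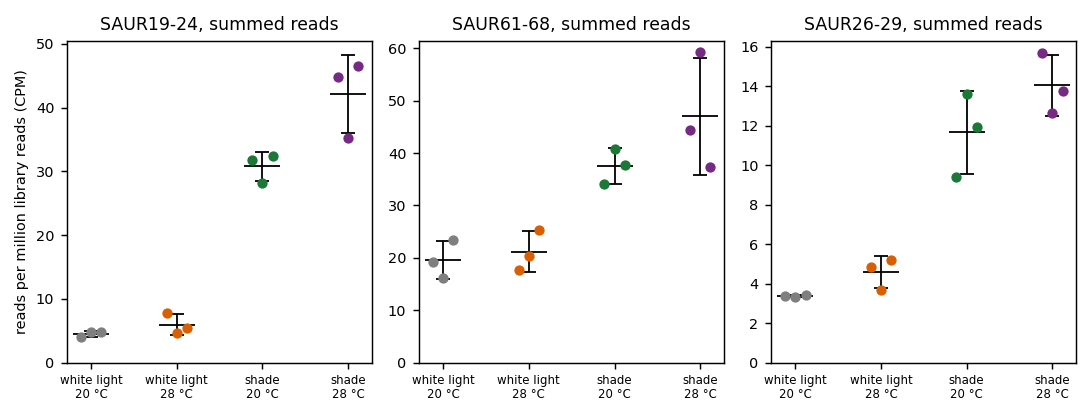
Summed reads of the SAUR19-24, SAUR61-68 and SAUR26-29 clusters in CPM (vertical axes, from 0) for each library (points) in each group, with the mean (long bar) and SD (error bar, n = 3). In each panel the 6 shaded libraries lie above the 6 in white light, for example 28.1 to 46.6 CPM against 4.02 to 7.75 CPM for SAUR19-24.

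The 8 genes of SAUR61 to SAUR68, of which SAUR63 is known to promote hypocotyl and stamen filament elongation, rose with shade as a sum. Shade at 20 °C raised SAUR65 and SAUR68, and shade at 28 °C raised SAUR64 and SAUR66. SAUR61, SAUR62, SAUR63 and SAUR67 were called in no comparison. SAUR61, which had the most reads of the cluster, changed by 0.10 ± 0.37 log2 units with shade at 20 °C. Its mean log2 CPM was 3.03 in L28 and 3.14 in S28. The sum changed by 0.95 ± 0.18 log2 units at 20 °C (limma adjusted p = 7.6e-04) and by 1.14 at 28 °C (adjusted p = 1.4e-04). The difference of the sum with warmth was 0.11 in white light (adjusted p = 0.736) and 0.30 under shade (adjusted p = 0.424). SAUR61, SAUR63 and SAUR64 overlap other annotated genes, and since the counting was not stated to use strand, reads of such neighbours cannot be told apart.

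SAUR66 (AT1G29500) had a log2 CPM of 1.69, 1.44 and 2.15 in L20 and of 2.0, 1.83 and 0.94 in L28. In shade SAUR66 stood at 2.99, 2.38 and 2.39 in S20 and at 3.38, 3.29 and 3.44 in S28. The 3 libraries with both treatments were the highest, and no shaded library fell among those in white light. Shade at 28 °C changed SAUR66 by 1.78 ± 0.38 log2 units (limma adjusted p = 0.00381), and both treatments against neither by 1.61 ± 0.38 (adjusted p = 0.00258). At 20 °C the change of 0.82 ± 0.38 was not called (adjusted p = 0.212).

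SAUR68 and SAUR65 were nearly silent in untreated seedlings. SAUR68 had 0 reads in white light at 20 °C against 23 under shade at 20 °C, a level at least 7.25-fold higher with a floor of 3 reads over the group. SAUR65 had 2 reads against 32, a ratio of 15.1 with an exact 95% counting interval from 3.86 to 130. Such intervals and floors take each read as independent, and are too narrow where both mates of a pair were counted. SAUR65 and SAUR68 were both called in limma and counted among the 13. In white light only L28r1 reached a log2 CPM of 0 for SAUR65, and no library did for SAUR68. Both thus passed the filter on low values (at least 3 libraries with a log2 CPM of 0 or more) through shaded libraries. Their calls are therefore given with no test value.

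SAUR26 to SAUR29 also rose with shade as a sum, by 1.74 ± 0.30 log2 units at 20 °C (limma adjusted p = 2.1e-04) and by 1.60 at 28 °C (adjusted p = 9.2e-04). With warmth in white light the difference of that sum was 0.42 (adjusted p = 0.379). On their own, SAUR28 was called at 20 °C and SAUR26 at 28 °C, and all 4 rose with both treatments against neither. In white light SAUR28 reached a log2 CPM of 0 only in L28r2 and L28r3. This gene thus needed shaded libraries to meet the filter on low values, and its calls are given with no test value. SAUR25, which lies on another chromosome and is 64.9% to 68.1% identical to SAUR19 to SAUR24, had 0 reads in 9 libraries and 4, 6 and 4 reads under shade at 28 °C. It passed the filter on low values through that group alone, where its level was at least 4.94-fold that of white light at 20 °C. It was called in no comparison, and no test value is given for it.

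Among SAUR1 to SAUR5 and SAUR50, tandem genes on chromosome 4, SAUR1 and SAUR3 rose with warmth and with shade, SAUR50 with shade, and SAUR5 with both treatments against neither. SAUR4 was called in no comparison. SAUR50 (AT4G34760), a gene known to act in cotyledon opening and light-dependent growth, had a log2 CPM of 2.12, 2.99 and 1.72 in L20 and of 3.36, 2.70 and 2.07 in L28. Shade put SAUR50 at 4.12, 3.6 and 4.18 in S20 and at 4.08, 4.49 and 4.35 in S28. All shaded libraries were above all libraries in white light. Its change with shade in log2 units was 1.69 ± 0.33 at 20 °C (limma adjusted p = 0.000858) and 1.60 ± 0.33 at 28 °C (adjusted p = 0.00251), and 0.44 ± 0.33 with warmth in white light (adjusted p = 0.405).

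SAUR1 (AT4G34770) had a log2 CPM of 0.01, -0.76 and 0.00 in L20 and of 2.0, 2.02 and 2.07 in L28. The shaded values of SAUR1 were 1.48, 2.09 and 2.46 in S20 and 2.40, 2.35 and 2.93 in S28. The untreated libraries stood below all 9 others, and shade alone overlapped with warmth alone. Warmth changed it by 2.28 ± 0.47 log2 units in white light (limma adjusted p = 0.00113) and shade at 20 °C by 2.26 ± 0.47 (adjusted p = 0.00178). Added to warmth, shade gave 0.53 ± 0.47 (adjusted p = 0.668), and both treatments against neither gave 2.81 ± 0.47 (adjusted p = 5.45e-05).

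SAUR3 (AT4G34790) was also lowest in untreated seedlings. It had 1 read over the 3 untreated libraries, at a log2 CPM of -3.16, -1.49 and -2.81, and 50 reads over those of warm white light, at 1.04, 2.46 and 2.21. Shade gave 0.01, 0.97 and 1.36 in S20 and 0.89, 1.24 and 1.65 in S28. Untreated libraries were again below all others, and the 3 treated groups overlapped. The reads of warm over untreated white light gave a ratio of 48.4, with an exact 95% counting interval from 8.29 to 1948. In limma SAUR3 was called with warmth (adjusted p = 8.77e-05) and with shade at 20 °C (adjusted p = 0.00318). Its highest libraries were L28r2 and L28r3, and shade at 28 °C, against warm white light, gave -0.65 ± 0.72 log2 units (adjusted p = 0.758). Its fitted interaction was -3.92 ± 1.01 log2 units (adjusted p = 0.0877).

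SAUR6, SAUR7 and SAUR12 lie together on chromosome 2, and SAUR6 and SAUR7 overlap each other. SAUR6 (AT2G21210) had a log2 CPM of -0.84, -0.76 and -0.49 in L20 and of 0.12, 0.67 and 0.56 in L28. Shaded libraries had 2.51, 1.28 and 1.82 for SAUR6 in S20 and 2.14, 3.01 and 2.21 in S28. Libraries of shade were the highest, warm white light lay between, and untreated libraries were the lowest, without overlap among these sets. The log2 change was 2.57 ± 0.56 with shade at 20 °C (limma adjusted p = 0.00298), 2.0 ± 0.56 with shade at 28 °C (adjusted p = 0.0341) and 1.15 ± 0.56 with warmth in white light (adjusted p = 0.175). The call at 28 °C was lost when any of the 6 libraries of that comparison was left out, with adjusted p-values from 0.0587 to 0.195. SAUR7 and SAUR12 were called in no comparison.

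**Figure D4:**
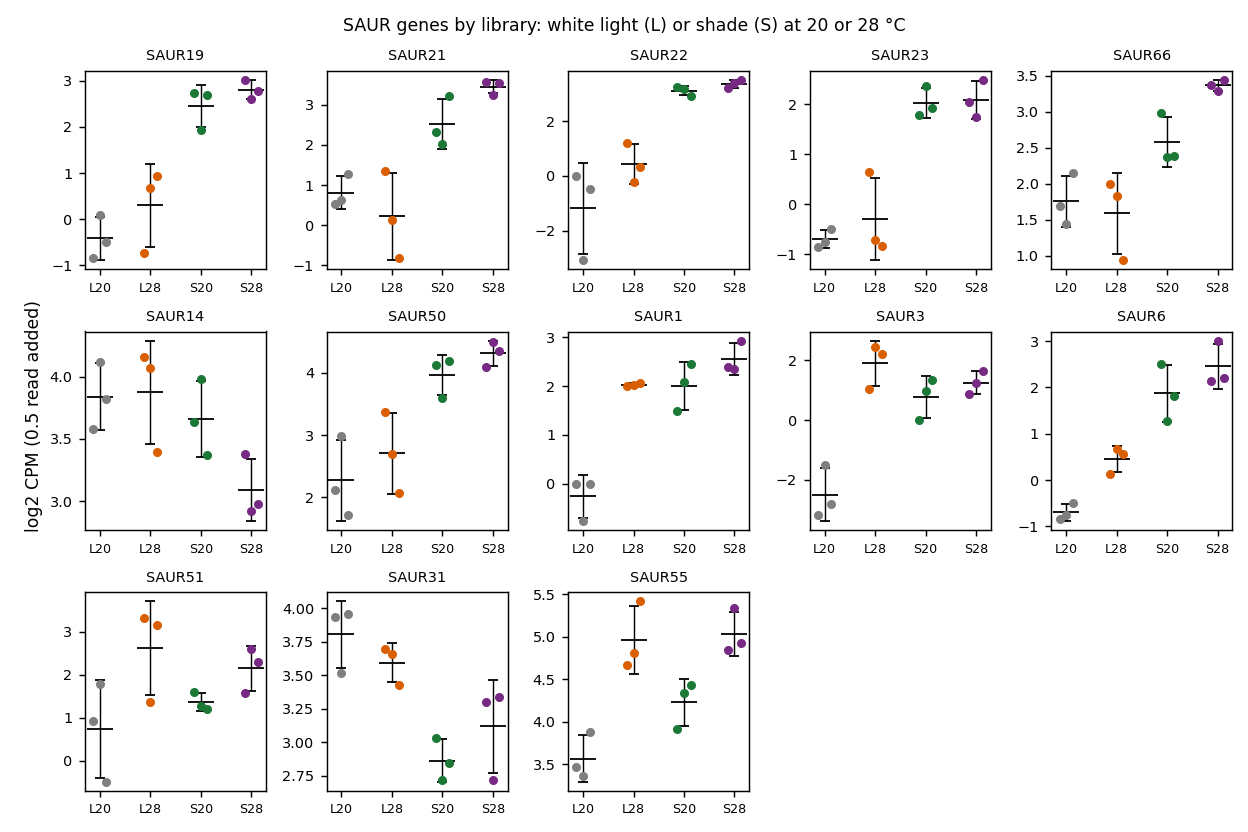
Level in log2 CPM (vertical axes) of 13 SAUR genes in each library (points) of white light (L) or shade (S) at 20 or 28 °C, with the mean (long bar) and SD (error bar, n = 3). SAUR22 and SAUR50 separate by light, SAUR55 by temperature, SAUR1 and SAUR3 are low only in untreated white light, and SAUR31 is lower under shade.

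Another 22 members are dispersed, apart from the clusters above. Warmth in white light raised 2 of these 22, SAUR51 and SAUR55, where 10.8% of all tested genes rose. Shade at 20 °C raised none, against 5.43%, and lowered SAUR31. Shade with warmth, against neither, raised 3 of the 22 (SAUR36, SAUR55 and SAUR78), against 14.9%. These counts lie near the shares over all genes. SAUR36 has been described as a promoter of leaf senescence. Shade at 28 °C gave no call among these 22 in limma, where 4.59% of all tested genes were called.

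SAUR55 (AT5G50760) was the member that tracked temperature. Its log2 CPM was 3.47, 3.36 and 3.88 in L20 and 4.66, 4.81 and 5.42 in L28. Shade gave SAUR55 3.92, 4.33 and 4.43 in S20 and 4.84, 5.33 and 4.93 in S28. All 6 libraries at 28 °C were above all 6 at 20 °C. The log2 change with warmth was 1.39 ± 0.21 in white light (limma adjusted p = 3.07e-05) and 0.81 ± 0.21 under shade (adjusted p = 0.025), and shade at 20 °C gave 0.66 ± 0.21 (adjusted p = 0.0503). The call under shade was lost when S20r1, S20r2, S28r2 or S28r3 was left out (adjusted p-values from 0.0554 to 0.157), and the count of called members was then 0. It was 2 without S20r3, which added SAUR78. Without the library highest in 18S reads of each group the change under shade was 0.50 (adjusted p = 0.325).

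SAUR51 (AT1G75580) had a log2 CPM of 0.92, 1.78 and -0.49 in L20 and of 3.33, 1.37 and 3.16 in L28. Under shade SAUR51 held 1.60, 1.28 and 1.21 in S20 and 1.58, 2.60 and 2.29 in S28. White light at 20 and 28 °C overlapped through 1 library each. The log2 change with warmth was 1.88 ± 0.56 (limma adjusted p = 0.0229), and it was not called without L20r3, L28r1 or L28r3, with adjusted p-values from 0.114 to 0.144. The 18S shares given above were higher at 28 °C than at 20 °C; without the library highest in 18S of each group, the difference for SAUR51 was 2.13 (limma adjusted p = 0.0707).

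SAUR31 (AT4G00880) fell with shade at 20 °C. Its log2 CPM was 3.93, 3.52 and 3.96 in L20 and 3.70, 3.66 and 3.43 in L28, against 3.03, 2.72 and 2.85 in S20 and 3.3, 2.72 and 3.34 in S28. Every shaded library was below every library in white light. The log2 change with shade at 20 °C was -0.94 ± 0.26 (limma adjusted p = 0.0206), and at 28 °C it was -0.48 ± 0.26 (adjusted p = 0.397). The call was lost when L20r1, L20r3, S20r2 or S20r3 was left out, with adjusted p-values from 0.0629 to 0.0884. SAUR31 overlaps AT4G00883 in the annotation.

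SAUR14 (AT4G38840), which lies beside SAUR15 and SAUR16 on chromosome 4, was lower with both treatments than with neither. Its log2 CPM was 3.58, 4.12 and 3.82 in L20 and 4.15, 4.07 and 3.4 in L28, against 3.64, 3.98 and 3.37 in S20 and 3.38, 2.92 and 2.98 in S28. The libraries with both treatments lay below the untreated ones without overlap. The log2 change was -0.75 ± 0.26 (limma adjusted p = 0.0356), and it was lost without L20r2, L20r3, S28r2 or S28r3, with adjusted p-values from 0.0731 to 0.157. Its neighbour SAUR16 rose with shade at 20 °C by 0.88 ± 0.24 (adjusted p = 0.0226) and with both treatments by 0.74 ± 0.24 (adjusted p = 0.0305).

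Per length of transcript, SAUR32 and SAUR78 were the most abundant members with neither treatment and with both. In CPM per kilobase, untreated seedlings held 31.8 of SAUR32, 26.9 of SAUR78, 24.7 of SAUR14, 15.5 of SAUR31 and 15.0 of SAUR30. With both treatments the order was SAUR32 (42.2), SAUR78 (36.4), SAUR55 (28.1), SAUR50 (22.2) and SAUR30 (15.4). SAUR32, known for a part in apical hook growth, was called in no comparison. The fitted changes of SAUR30 in the 6 comparisons of groups lay between -0.06 and 0.05 log2 units. SAUR30 had the same reads as AT5G53588 in every library, so its level and changes cannot be assigned to SAUR30 alone. In all, 25 tested members were called nowhere, and some of these, such as SAUR40, SAUR54 and SAUR76, had libraries with 0 reads.

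**Figure D5:**
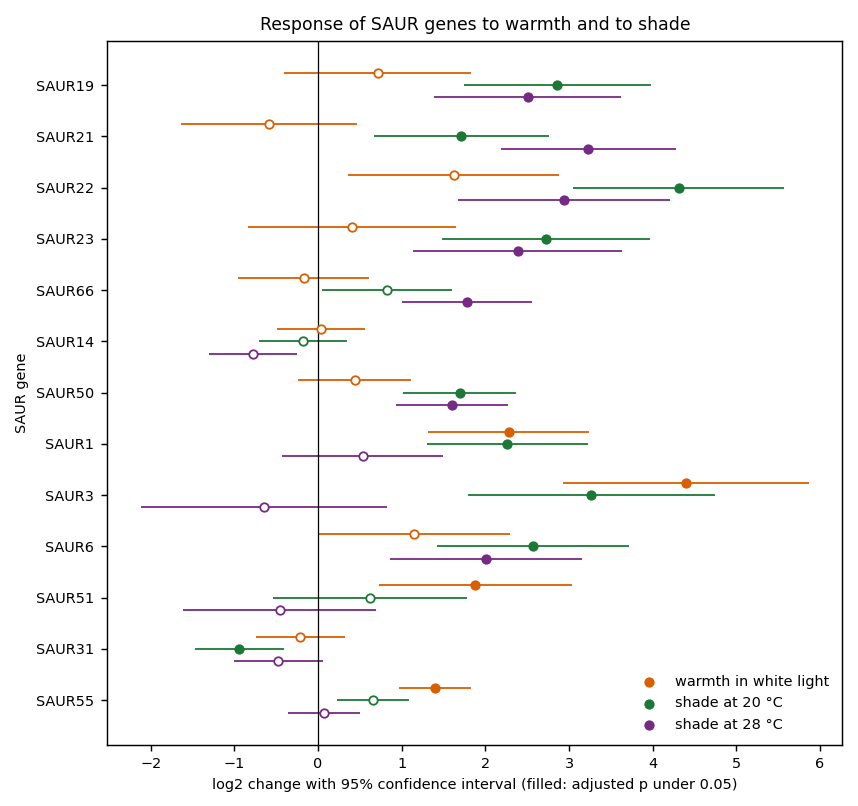
Log2 change with 95% confidence interval (horizontal axis) of 13 SAUR genes (vertical axis) for warmth in white light (orange), shade at 20 °C (green) and shade at 28 °C (purple), with filled points for an adjusted p under 0.05. SAUR1 and SAUR3 have filled orange and green points, SAUR51 and SAUR55 filled orange ones, and SAUR19, SAUR21, SAUR22, SAUR23, SAUR50 and SAUR6 filled green and purple ones. SAUR23 met the filter on low values through shaded libraries, so its intervals and filled points are no test of shade.

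Shade and warmth, each alone, were also set directly against each other. Of 51 tested members, 7 were higher under shade at 20 °C than in white light at 28 °C (SAUR19, SAUR20, SAUR21, SAUR22, SAUR23, SAUR50 and SAUR64), and 1, SAUR55, was lower. Over all tested genes 3.46% were higher and 4.39% lower, 7.85% in either direction. The SAUR19-24 sum differed by 2.38 log2 units (limma adjusted p = 3.8e-08), the SAUR26-29 sum by 1.32 (adjusted p = 0.00436) and the SAUR61-68 sum by 0.84 (adjusted p = 0.00303). SAUR55 differed by -0.74 ± 0.21 (adjusted p = 0.0273) and was lost under each of the 3 other scalings, which gave 9 members higher and none lower and moved the share of all calls that were higher from 44.1% to between 55.9% and 69.3%. Without S20r1, S20r2 or S20r3 the count of called members was 4, 5 and 5. SAUR1, with a difference of -0.02 ± 0.47, was not called (adjusted p = 0.99).

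Single calls of that comparison were lost under these settings. SAUR19 was not called without L28r1, S20r1 or S20r3 (adjusted p up to 0.0743). SAUR23 was not called without L28r2, L28r3 or S20r2. SAUR50 was not called without L28r3, S20r1 or S20r3 (adjusted p up to 0.106). SAUR55 was not called without L28r3 or S20r1 (adjusted p up to 0.206). Without the library highest in 18S reads of each group, SAUR55 differed by -0.35 (adjusted p = 0.455) and SAUR21 by 1.88 (adjusted p = 0.0698), and SAUR19, SAUR23 and SAUR50 were not called either. With a constant prior variance SAUR22 (adjusted p = 0.0606), SAUR50 and SAUR55 were not called.

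Whether shade and warmth added up on the log2 scale was tested as an interaction. In limma 0 members passed, with 7 at an unadjusted p under 0.05, where 0.127% of all tested genes passed upwards and 0.319% downwards, 0.446% in either direction. SAUR3 had the smallest adjusted p, 0.0877. It passed without L20r2, but the untreated group then held 0 reads, so that value rests on the 0.5 read added to each count. With a constant prior variance SAUR25 passed, and that value rests on the same added 0.5 read, since 3 of its 4 groups held 0 reads. For the SAUR19-24 sum the interaction was 0.09 log2 units with a 95% interval from -0.56 to 0.75. Shade at 20 and at 28 °C raised 7 members in common, 53.8% of the 13 and 63.6% of the 11. These comparisons set different libraries against each other. Their calls are not independent, since the fit takes the residual variance of each gene from all libraries. Over all tested genes 403 rose in both, 34.8% of the 1158 that rose at 20 °C and 70.5% of the 572 that rose at 28 °C.

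Libraries mattered for the other counts too. Shade at 20 °C gave 9 called members without S20r3, which also held the most seed storage reads. Shade at 28 °C gave 6 without L28r2 and 7 without S28r3. Both treatments against neither gave 15 without S28r2. Without the library highest in 18S reads of each group, the calls of SAUR6 (adjusted p = 0.0844) with shade at 20 °C and of SAUR50 (0.0866) and SAUR66 (0.0818) with shade at 28 °C were also lost. A constant prior variance in limma ended the calls of SAUR51 with warmth (adjusted p = 0.0899), SAUR21 with shade at 20 °C (0.0955), and SAUR22 (0.0678) and SAUR50 (0.074) with shade at 28 °C. Voom weights ended that of SAUR3 with shade at 20 °C (adjusted p = 0.0754).

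Genes of the same growth pathway were read from lists chosen beside the family. Tested early auxin genes outside the SAUR family (IAA repressors and GH3 conjugating enzymes) numbered 13, and none fell. With shade, 6 rose at 20 °C and 8 at 28 °C, against 5.43% and 2.68% of all tested genes. Warmth in white light raised 5 and both treatments raised 10, against 10.8% and 14.9%. IAA19, a repressor gene tied to elongation, changed by 1.92 ± 0.18 log2 units with shade at 20 °C (limma adjusted p = 1.35e-08), and IAA29 by 3.86 ± 0.30 (adjusted p = 4.64e-10). With warmth in white light, IAA29 changed by 1.53 ± 0.30 (adjusted p = 0.000613), while IAA19 gave 0.17 ± 0.18 and was not called (adjusted p = 0.569). The median log2 change of the list was 0.78 with shade at 20 °C and 0.27 with warmth.

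Of the 9 PP2C.D phosphatase genes, the targets of SAUR proteins, PP2C.D1 and PP2C.D2 rose with warmth in white light. The same 2 rose with shade at 20 °C. Over all tested genes, 10.8% rose with warmth in white light and 5.43% with shade at 20 °C. PP2C.D1 changed by 1.10 ± 0.12 log2 units with warmth (limma adjusted p = 2.4e-07) and by 0.60 ± 0.12 with shade at 20 °C (adjusted p = 0.00109), and it was 0.50 ± 0.12 lower in shade alone than in warmth alone (adjusted p = 0.00677). Of 10 tested proton pump genes, 4 rose with warmth in white light (AHA1, AHA2, AHA7 and AHA9) and 1, AHA2, with shade at 20 °C. AHA2, a main pump of growing tissues, changed by 0.53 ± 0.11 with warmth (adjusted p = 0.00135) and by 0.43 ± 0.11 with shade (adjusted p = 0.0125). Shade at 28 °C raised PP2C.D7 and no pump gene, where 2.68% of all tested genes rose.

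Factors known to bind such promoters (phytochrome-interacting factors, BZR1 and BES1, and auxin response factors) were read from 12 genes. PIF3 and BES1 rose with warmth in white light, near the 10.8% of all tested genes that rose. PIF3, PIF7 and BES1 fell with shade at 28 °C, where 1.9% of all tested genes fell. Another 28 SAUR genes in the table were not among the 52. Of the 18 tested, SAUR44 rose with warmth in white light, where 10.8% of all tested genes rose. SAUR79 fell with warmth, where 4.8% fell, with a change of -3.49 ± 0.70 log2 units (limma adjusted p = 0.000918). These counts lie near the shares over all genes. Shade at 20 °C gave no call among the 18, against 8.09% of all tested genes.

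CACATG occurred on either strand in the 250 bases before 26 of the 52 members, 50.0%, against 11.1% of 27443 protein-coding genes. It stood before all 8 genes of SAUR61 to SAUR68 and all 4 of SAUR26 to SAUR29, 3 of 6 of SAUR19 to SAUR24 and 4 of the 22 dispersed members. Among members that rose with shade it stood before 9 of 13 at 20 °C and 7 of 11 at 28 °C, and among those that rose with warmth in white light before 3 of 4. TGTCTC occurred before 13.5% of members and 10.9% of all genes, TGTCGG before 3.85% and 4.16%, and CACGTG before 1.92% and 6.49%. Copies of a cluster share ancestry and sequence, so these members are not independent, and a match is a description of letters, not a site.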

How the data were processed

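Expression was measured by paired-end sequencing of polyA RNA in 12 libraries, 3 replicates for each of 4 groups. The authors deposited log2 values on the voom scale, that is log2 CPM with 0.5 read added to each count and no further scaling factor. The submitters' processing notes name genome build TAIR10 and, with no role given, the tools limma, R 4.0.2, SAMtools 1.3 and TopHat2 2.1.1; the read counter and its use of strand are not given in the sources used here. The deposited columns are headed ambient and heat, taken here as 20 and 28 °C. Whole reads were recovered from 100% of values within 0.001 read, from library totals of 3500325 to 4481869. These totals set the precision: at about 4 reads per CPM, many members rest on a handful of reads, and intervals and floors cover counting error only, with each read taken as independent.

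The whole table was fitted with limma 3.58.1 in R 4.3.3 (4 group means, trended prior variance) on the deposited log2 values. Genes were tested when at least 3 libraries had a log2 CPM of 0 or more, which left 21316, and p-values were adjusted by Benjamini-Hochberg at a threshold of 0.05. For cluster sums, members of each cluster were replaced by 1 summed entry and the table was refitted. The procedure was tested on simulated data in which only genes with more reads were changed, so members with few reads were not covered. Replicate numbers did not pair the samples: over 18 same-numbered pairs the residual correlation was -0.03 to 0.04.

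Names, promoters and coding sequences came from RefSeq TAIR10.1, whose 5 nuclear chromosomes are those of TAIR10; all 52 members and 32835 of 33602 identifiers matched. Where SAUR67 and SAUR68 differ between sources, SAUR68 is AT1G29490. Named members were the 5 called with the smallest adjusted p in each direction of each comparison, every member that fell and every interaction call. The members, the lists and these rules were chosen with earlier results of these data known. Alternatives were other scalings, filters, prior variances, voom weights, a replicate block and leaving out libraries. Upstream sequences are given for 5 members; those of the others are not reported here.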

Additional observations from a re-analysis of the deposited data

How the results depend on the processing

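Under the alternatives 1410 values were followed, those of named members where they had been called and those of cluster sums. Gains by uncalled members are thus not among them. Of these values, 1338 stayed on their side of the threshold, 72 lost their call and 0 reversed with a call in either fit. Changes of sign between uncalled values counted as no change. The SAUR61-68 sum with warmth in white light, for example, ranged from -0.16 to 0.25 log2 units. Of the calls on cluster sums, only that of SAUR61-68 between shade alone and warmth alone was lost, with a constant prior variance (adjusted p = 0.0594). Leaving out 1 library at a time gave 3 to 6 called members for warmth in white light, 9 to 15 for shade at 20 °C, 15 to 24 for both treatments, 6 to 11 for shade at 28 °C, 0 to 2 for warmth under shade, 4 to 8 for shade against warmth and 0 to 1 for the interaction. A constant prior variance gave 1 interaction call (SAUR25, with 0 reads in 3 groups, so its value rests on the added 0.5 read); no filter on low values and voom weights each gave 2 calls for warmth under shade. Without the library highest in 18S reads of each group, an alternative chosen after seeing the data, calls numbered 15 for both treatments, 5 for shade at 28 °C, 0 for warmth under shade and 3 for shade against warmth; this leaves 2 libraries a group, and the cause was not tested. With a replicate block, 15 members were called for shade at 20 °C (SAUR55 added) and 4 for warmth in white light; the numbers did not pair the samples (residual correlations from -0.03 to 0.04), and no count moved by more than 1.5 times. Count models with edgeR or DESeq2 on the recovered reads were not run here. Low depth limits members under about 10 reads.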
